A study of Mus musculus with 27 samples.

Results

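The 10 genes described here encode enzymes on the path from glucose 6-phosphate to lactate in a muscle fiber: Gpi1, Pfkm, Aldoa, Tpi1, Gapdh, Pgk1, Pgam2, Eno3, Ldha and Ldhb. Pyruvate kinase also belongs to that path and is described with the related genes. The 10 genes were chosen with earlier results of these data known. Their probes were taken by symbol and not by value, as the non-control probes that the array's annotation gave 1 of these 10 names. On the array 21 probes of 55681 carried such a name, namely 7 for Gapdh, 3 each for Gpi1 and Ldha, 2 for Tpi1 and 1 for each of the other 6 genes. A probe was tested where at least 21 of the 27 arrays gave it a usable value. This held for 22154 probes in all and for 20 of the 21 probes here, covering 9 of the 10 genes, while Ldhb fell short.

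Single myofibers of the tibialis anterior, a fast muscle of the lower leg, were collected from male mice labelled 3 months old, and the RNA of each fiber was amplified and hybridised to its own array. WT comprised 8 myofibers from 2 mice, Smn1deltaSKM comprised 12 myofibers from 3 mice, and Smn1deltaSKM+AFS comprised 7 myofibers from 2 mice. These numbers are those of the labels, and the study's text counts the transplanted fibers and mice differently, so the number of mice behind the last group is in doubt. In both Smn1deltaSKM groups a Cre recombinase under a human skeletal actin promoter removed exon 7 of the floxed Smn1 gene, so the deletion was limited to skeletal muscle and the mice kept Smn1 elsewhere. The AFS mice had in addition received amniotic fluid stem cells through the tail vein. By the methods fibers were taken a month after a transplantation at 3 months, while the label gives an age of 3 months. The comparisons ask whether transcripts of the pathway differ in myofibers that lack Smn1, and whether they differ after transplantation.

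Glycolysis splits a hexose into paired trioses and then draws ATP from them in the cytosol, without oxygen. Fast-twitch fibers hold these enzymes at very high levels, because short bursts of contraction run largely on glycogen that is broken down through this route. Muscle uses its own isoforms for several steps, among them Pfkm, Aldoa, Pgam2 and Eno3. Lactate dehydrogenase closes the path by turning pyruvate into lactate: Ldha encodes the subunit typical of fast muscle and Ldhb the subunit typical of heart and slow muscle.

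Values are log2 signals relative to each array's own 75th percentile, so a difference of 1 is a doubling of the relative signal, and the amount of RNA in a fiber is not measured. Fewer transcripts of a gene and more of the other transcripts in a fiber cannot be told apart on this scale. Levels of different probes were not set against each other. Fibers of 1 mouse were averaged before testing, and differences come from limma on these mouse means with Benjamini-Hochberg adjustment over the 22154 probes; a probe was called at an adjusted p under 0.05. For each gene the brightest tested probe stands first and is named the lead probe.

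All 8 WT arrays, and no other array, lay on 1 slide scanned on a day of their own, so slide, scan day and genotype cannot be told apart in comparisons with WT. Usable values numbered 23864 to 34001 probes per WT array, 23170 to 37580 per Smn1deltaSKM array and 25868 to 30478 per Smn1deltaSKM+AFS array. All 8 myofiber markers were well above background in every fiber, except Myh1 in Smn1deltaSKM fiber 2. The log2 of their summed signal was 10.33 to 10.77 in WT, 9.42 to 10.26 in Smn1deltaSKM and 10.09 to 10.93 in Smn1deltaSKM+AFS. This sum, here and for the markers below, kept spots that were not well above background. Of 4 fibroblast markers Pdgfra had a value on 0 arrays, Col1a1 on 16, Col3a1 on 23 and Dcn on 18, which were 1 of 8 WT, 12 of 12 Smn1deltaSKM and 5 of 7 Smn1deltaSKM+AFS arrays. The log2 of their summed signal was -1.94 to 5.91 in WT (median -0.71), -1.01 to 4.31 in Smn1deltaSKM (median 2.39) and -1.45 to 4.03 in Smn1deltaSKM+AFS (median 3.00). Of 3 satellite cell markers Myf5 had a value on 0 arrays, Pax7 on 3 and Cdh15 on 26. The log2 of their summed signal was -1.23 to 0.66, -1.05 to 4.56 and -0.55 to 0.43 in the same order. For 4 immune markers the log2 of the summed signal was -0.10 to 1.18 in WT, 1.16 to 3.98 in Smn1deltaSKM and 0.88 to 3.85 in Smn1deltaSKM+AFS. A first Smn1 probe (A_55_P2048848) averaged 1.85 in WT, 0.16 in Smn1deltaSKM and 0.24 in Smn1deltaSKM+AFS (Smn1deltaSKM minus WT -1.68, SE 0.368, adjusted p 0.02), whereas a second (A_55_P2048560) averaged 2.40, 2.59 and 2.79. Where either probe lies relative to exon 7 was not examined.

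Several genes were read by more than 1 probe, and where these probes bind bears on what they report. The 3 Gpi1 probes are copies of nearly 1 sequence at chr7:34987173-34987237 on the minus strand (mm9), so they are no independent readings. Their shared 30 bases at chr7:34987203-34987232 are printed 5′ to 3′, with a capital where a probe departs from the lead probe A_55_P2022434, which are G15T and C8T counted from the first base printed.
Gpi1 A_55_P2022434: tgttgttctgacctgtatttcacaccccag
Gpi1 A_55_P2030433: tgttgttctgacctTtatttcacaccccag
Gpi1 A_55_P1992208: tgttgttTtgacctgtatttcacaccccag
Over the 56 and 55 bases that these probes share with the lead probe, each differs from it by 1 base.

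Of the 7 Gapdh probes, those with the last annotated start in the transcript overlap. A stretch of 30 bases at chr6:125111899-125111928 on the minus strand (mm9) shows how they differ, with capitals at G2A, C17A, T22C and T26C in A_55_P2186027 relative to A_55_P2081133.
Gapdh A_55_P2081133: gggcctagggagccctccctattcttttga
Gapdh A_55_P2186027: gAgcctagggagccctAcctaCtctCttga
In all, these probes overlap by 51 bases, of which 5 differ. The lead Gapdh probe, A_55_P2088912 at chr6:125112979-125113038, lies nearer the start of the transcript, and this 60-base probe is printed because the values per fiber given for Gapdh come from it.
Gapdh A_55_P2088912: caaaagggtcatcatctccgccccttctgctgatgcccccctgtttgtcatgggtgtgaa
The genome holds many processed copies of Gapdh, and signal from near-identical copies cannot be told apart from that of the gene.

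Of Ldha the probe with the largest fall is given in full beside one that was not called, A_55_P2141878, and the called Pgam2 probe follows, all with no capitals. A_55_P2141876 lies at chr7:54103010-54103069 and A_55_P2141878 at chr7:54107294-54107353, both on the plus strand, and A_51_P264495 spans an intron at chr11:5701822-5703040 on the minus strand (all mm9).
Ldha A_55_P2141876: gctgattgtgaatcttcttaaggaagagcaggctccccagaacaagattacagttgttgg
Ldha A_55_P2141878: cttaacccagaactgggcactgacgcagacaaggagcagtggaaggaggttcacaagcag
Pgam2 A_51_P264495: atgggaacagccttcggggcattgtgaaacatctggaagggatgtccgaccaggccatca
The remaining lead probes lie at chr15:97962713-97962772 for Pfkm, chr7:133938816-133938875 for Aldoa, chr6:124761923-124761982 for Tpi1, chrX:103398640-103398699 for Pgk1, chr11:70475953-70476012 for Eno3 and chr7:54110937-54110996 for Ldha.

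Every tested probe of these genes read lower in Smn1deltaSKM than in WT. Differences of the 20 probes ranged from -1.78 to -0.30 with a median of -0.84, whereas the median over all 22154 probes was -0.14. Of the 20, 7 were called, all lower, or 35%, where 14.1% of all probes were called lower and 21.5% in either direction. The 7 were the lead probe and 1 further probe of Gpi1, both overlapping Gapdh probes, the Pgam2 probe, and 2 Ldha probes. For 18 of the 20 probes every Smn1deltaSKM mouse mean lay below every WT mouse mean, as for 33.9% of all probes. For 9 probes every Smn1deltaSKM fiber lay below every WT fiber, as for 7.16% of all probes. The size and the calls depended on how arrays were scaled: with 5 other scalings 1 or 2 of the 20 probes were called, a smaller share than the 15.5 to 17.9% of all probes called there, while the lead probes of all 9 genes stayed lower in each of them. Leaving out either WT mouse left 0 calls, among the 20 and among all probes. Without Smn1deltaSKM mouse 1, 14 of the 20 were called (43.6% of all probes), without mouse 2, 2 (8.79%), and without mouse 3, 3 (9.87%).

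**Figure D1:**
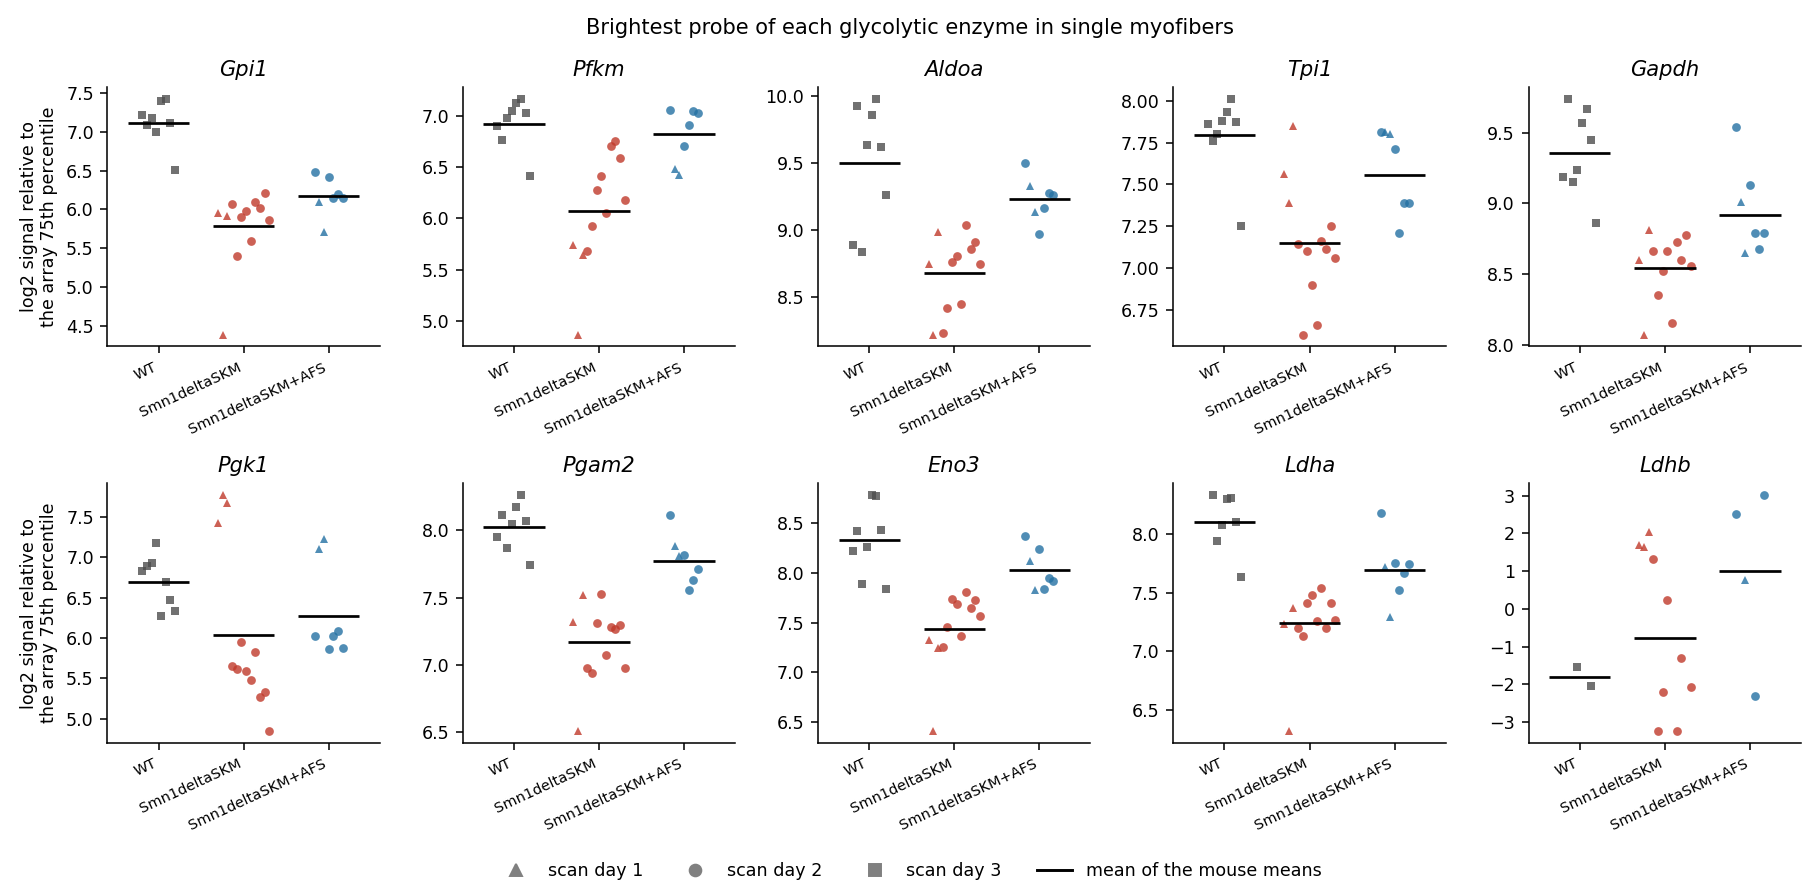
Log2 signal relative to the array's 75th percentile of the lead probe of each of the 10 genes in every myofiber with a usable value, by group, with the scan day as the symbol and a bar at the mean of the mouse means. For Gpi1, Pgam2, Eno3, Gapdh and Ldha the Smn1deltaSKM fibers all lie below the WT fibers, whereas the Smn1deltaSKM fibers of scan day 1 lie within the WT range for Tpi1 and above it for Pgk1.

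The first steps rearrange glucose 6-phosphate and cleave it. Gpi1, which turns glucose 6-phosphate into fructose 6-phosphate, had values of 6.51, 7.14 and 7.42 (lowest, median and highest fiber) in WT, of 4.39, 5.94 and 6.21 in Smn1deltaSKM, and of 5.71, 6.15 and 6.48 in Smn1deltaSKM+AFS. No Smn1deltaSKM or Smn1deltaSKM+AFS fiber reached the lowest WT fiber. The WT mice averaged 7.12 and 7.11, and the Smn1deltaSKM mice 5.58, 5.72 and 6.05. Gpi1 fell 2.51-fold in Smn1deltaSKM (difference -1.33, SE 0.266, 95% interval -1.94 to -0.72, limma adjusted p 0.0159). Its overlapping probes gave -1.06 (A_55_P1992208, adjusted p 0.0442) and -0.99 (A_55_P2030433, adjusted p 0.0537). The lead probe was also among the few called under 2 of the 5 other scalings, at -1.10 and -1.11.

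Pfkm, the muscle subunit of the phosphofructokinase that commits sugar to the pathway, was read by 10 spots of 1 probe. Its WT fibers ran from 6.41 through a median of 7.00 to 7.16 and its Smn1deltaSKM fibers from 4.87 through 6.11 to 6.75, so the groups overlapped. The Smn1deltaSKM mice spread widely, at 5.48, 6.17 and 6.56, while both WT mice averaged 6.92. The difference of -0.85 (SE 0.351, 95% interval -1.66 to -0.05) did not pass, at a limma adjusted p of 0.11.

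Aldoa, the aldolase of muscle, which cleaves fructose bisphosphate into trioses, stood at 8.84, 9.63 and 9.98 in WT and at 8.22, 8.75 and 9.04 in Smn1deltaSKM fibers. Only the lowest WT fibers fell within the Smn1deltaSKM range. The difference was -0.82 (SE 0.269, 95% interval -1.43 to -0.20, limma adjusted p 0.0602).

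Tpi1 interconverts the trioses. Its lead probe lay between 7.25 and 8.01 in WT (median 7.87) and between 6.60 and 7.85 in Smn1deltaSKM (median 7.12). The 3 Smn1deltaSKM fibers scanned on day 1 were the highest of their group, at 7.39 to 7.85, and the 9 of day 2 lay at 6.60 to 7.25. All of these day-1 fibers came from mouse 1, whose only day-2 fiber stood at 7.14. The lead difference was -0.65 (SE 0.303, limma adjusted p 0.15) and that of the other Tpi1 probe -0.59 (SE 0.25, limma adjusted p 0.118).

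The later steps draw ATP and reducing power from the trioses. Gapdh oxidises glyceraldehyde phosphate and is often used as a reference gene. On its lead probe WT fibers ranged from 8.86 over a median of 9.34 to 9.74, and Smn1deltaSKM fibers from 8.07 over 8.60 to 8.81, without overlap. Mouse means were 9.33 and 9.39 in WT and 8.54, 8.42 and 8.67 in Smn1deltaSKM. The lead difference was -0.82 (SE 0.261, 95% interval -1.41 to -0.22) and missed the threshold at a limma adjusted p of 0.0557.

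The 7 Gapdh probes did not read alike. Counted from the first transcript base at which each probe begins, the differences of Smn1deltaSKM from WT were -0.82 at base 156, -0.51 at base 239, -0.82 at base 391 (the lead probe), -0.44 at base 740, -0.30 at base 897, -1.16 at base 1164 and -0.97 at base 1175. The overlapping pair fell 2.23-fold (A_55_P2081133, SE 0.264, limma adjusted p 0.0223) and 1.96-fold (A_55_P2186027, SE 0.255, limma adjusted p 0.0325). In both every Smn1deltaSKM fiber lay below every WT fiber. The 5 others were not called. The probe at base 740 carries the name Gapdh, but the array design places it on another chromosome than the gene. For the probe at base 897 the design gives only chr6:125111848-125111866, which lies beyond the overlapping pair. The places of these probes along the transcript are therefore in doubt. Both turned to higher values in Smn1deltaSKM under some scalings, up to 0.25 at base 897 and 0.22 at base 740, so no direction is given for them. The intervals of all 7 probes overlap, and whether the probes differ from each other was not tested.

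**Figure D2:**
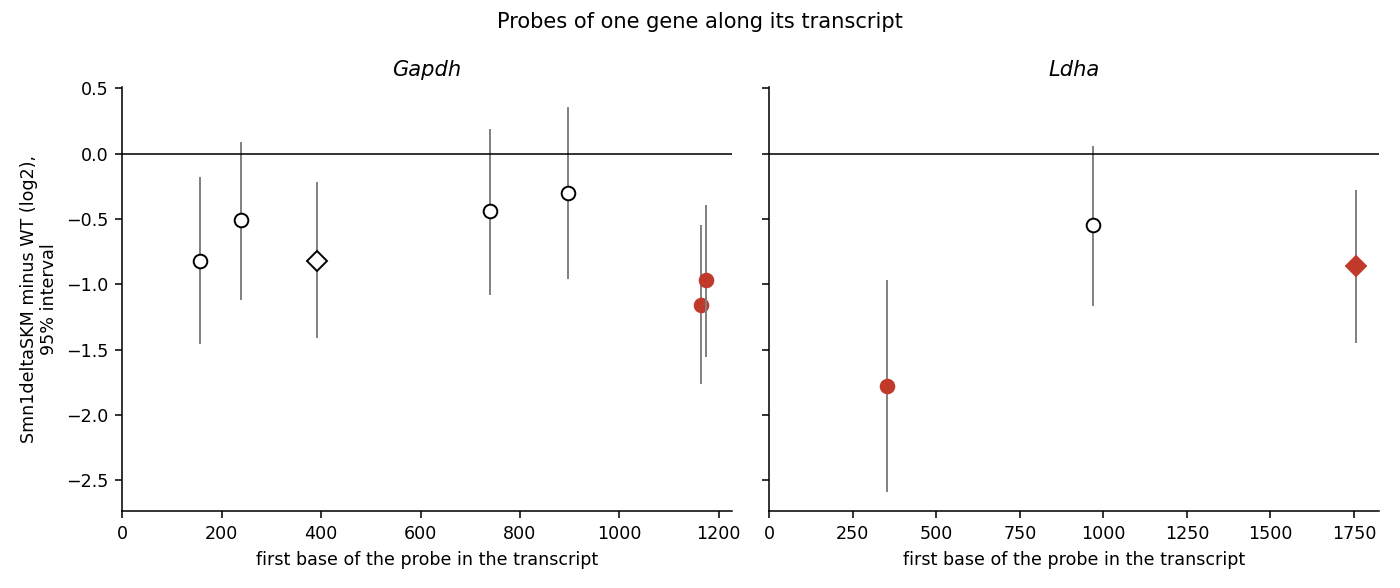
Difference of Smn1deltaSKM from WT (log2, points) with its 95% interval (lines) for each Gapdh and Ldha probe against the transcript base at which the probe begins, with red where the adjusted p was under 0.05 and a diamond for the lead probe. The Gapdh probes drawn at bases 740 and 897, whose places are in doubt, lie nearest 0, at -0.44 and -0.30. The Ldha probe at base 351 lies lowest, at -1.78.

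Pgk1, which passes a phosphate to ADP, varied most between fibers among the 9 tested genes. Fibers of Smn1deltaSKM mouse 1 scanned on day 1 stood at 7.43, 7.77 and 7.68, above every WT fiber (6.27 to 7.18), while the fiber of the same mouse scanned on day 2 stood at 5.65. The other Smn1deltaSKM fibers, all of day 2, lay between 4.85 and 5.95 and below every WT fiber. In Smn1deltaSKM+AFS the same split appeared within mouse 1, at 7.11 and 7.23 on day 1 and 6.02 and 5.87 on day 2. With all fibers the difference of Smn1deltaSKM from WT was -0.66 (SE 0.521, 95% interval -1.85 to 0.53, limma adjusted p 0.374), and without Smn1deltaSKM fibers 1 to 3 it was -1.16 (limma adjusted p 0.0236). WT was scanned on another day, so no scan day holds both groups.

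Pgam2, the phosphoglycerate mutase of muscle, was among the tightest: pooled over groups, its SD between fibers was 0.233, the lowest of the 9 tested genes, against 0.758 for Pgk1. WT fibers spanned 7.74 to 8.26 around a median of 8.06, and Smn1deltaSKM fibers 6.51 to 7.53 around 7.28. The groups did not overlap, and the mouse means were 7.99 and 8.06 against 7.08, 7.21 and 7.21. Pgam2 fell 1.81-fold (difference -0.86, SE 0.253, 95% interval -1.44 to -0.28, limma adjusted p 0.0448). Under the 5 other scalings it was called in 0, at -0.64 to -0.42.

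Eno3, the muscle enolase that makes phosphoenolpyruvate, had fibers at 7.84, 8.34 and 8.78 in WT and at 6.41, 7.51 and 7.81 in Smn1deltaSKM. Every Smn1deltaSKM fiber lay below every WT fiber, yet the mice of Smn1deltaSKM varied more (7.06, 7.56 and 7.69). The difference of -0.89 (SE 0.296, 95% interval -1.57 to -0.21) gave a limma adjusted p of 0.0624.

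Ldha was lower on each of its 3 probes. On the lead probe the 7 WT fibers with a usable value lay at 7.63 to 8.33 (median 8.10) and the 12 Smn1deltaSKM fibers at 6.32 to 7.54 (median 7.27), without overlap. Ldha fell 1.82-fold there (difference -0.86, SE 0.257, 95% interval -1.45 to -0.28, limma adjusted p 0.046), but under the 5 other scalings the lead probe was called in 0, at -0.65 to -0.31. On A_55_P2141876, which begins at base 351, WT fibers lay at 6.82 to 7.93 and Smn1deltaSKM fibers at 3.99 to 6.32.
On that probe the fall was 3.44-fold (difference -1.78, SE 0.356, 95% interval -2.59 to -0.97, limma adjusted p 0.0158), with mouse means of 7.32 and 7.54 in WT and of 5.18, 5.59 and 6.18 in Smn1deltaSKM. It was called in 19 of 22 alternative settings, 3 of the 5 other scalings giving it as their only called probe of the 20. A_55_P2141878, at base 970, gave -0.55 (SE 0.269, 95% interval -1.17 to 0.06, limma adjusted p 0.164). Which Ldha transcripts hold each of the 3 probe sites was not examined.

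Ldhb was near the limit of detection and was not tested. Usable values came from 2 of 8 WT fibers (-1.55 and -2.04), 10 of 12 Smn1deltaSKM fibers and 4 of 7 Smn1deltaSKM+AFS fibers. The 4 fibers of Smn1deltaSKM mouse 1 stood at 1.70, 1.63, 2.05 and 1.31, which covers both of its scan days. Mouse 2 gave -3.23, -2.20 and 0.23 and mouse 3 gave -3.22, -1.29 and -2.08. In Smn1deltaSKM+AFS the values were 2.51 and 0.77 in mouse 1 and -2.31 and 3.01 in mouse 2. All 4 fibers of Smn1deltaSKM mouse 1 thus lay above every other fiber of their group, and no difference between groups is given.

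**Figure D3:**
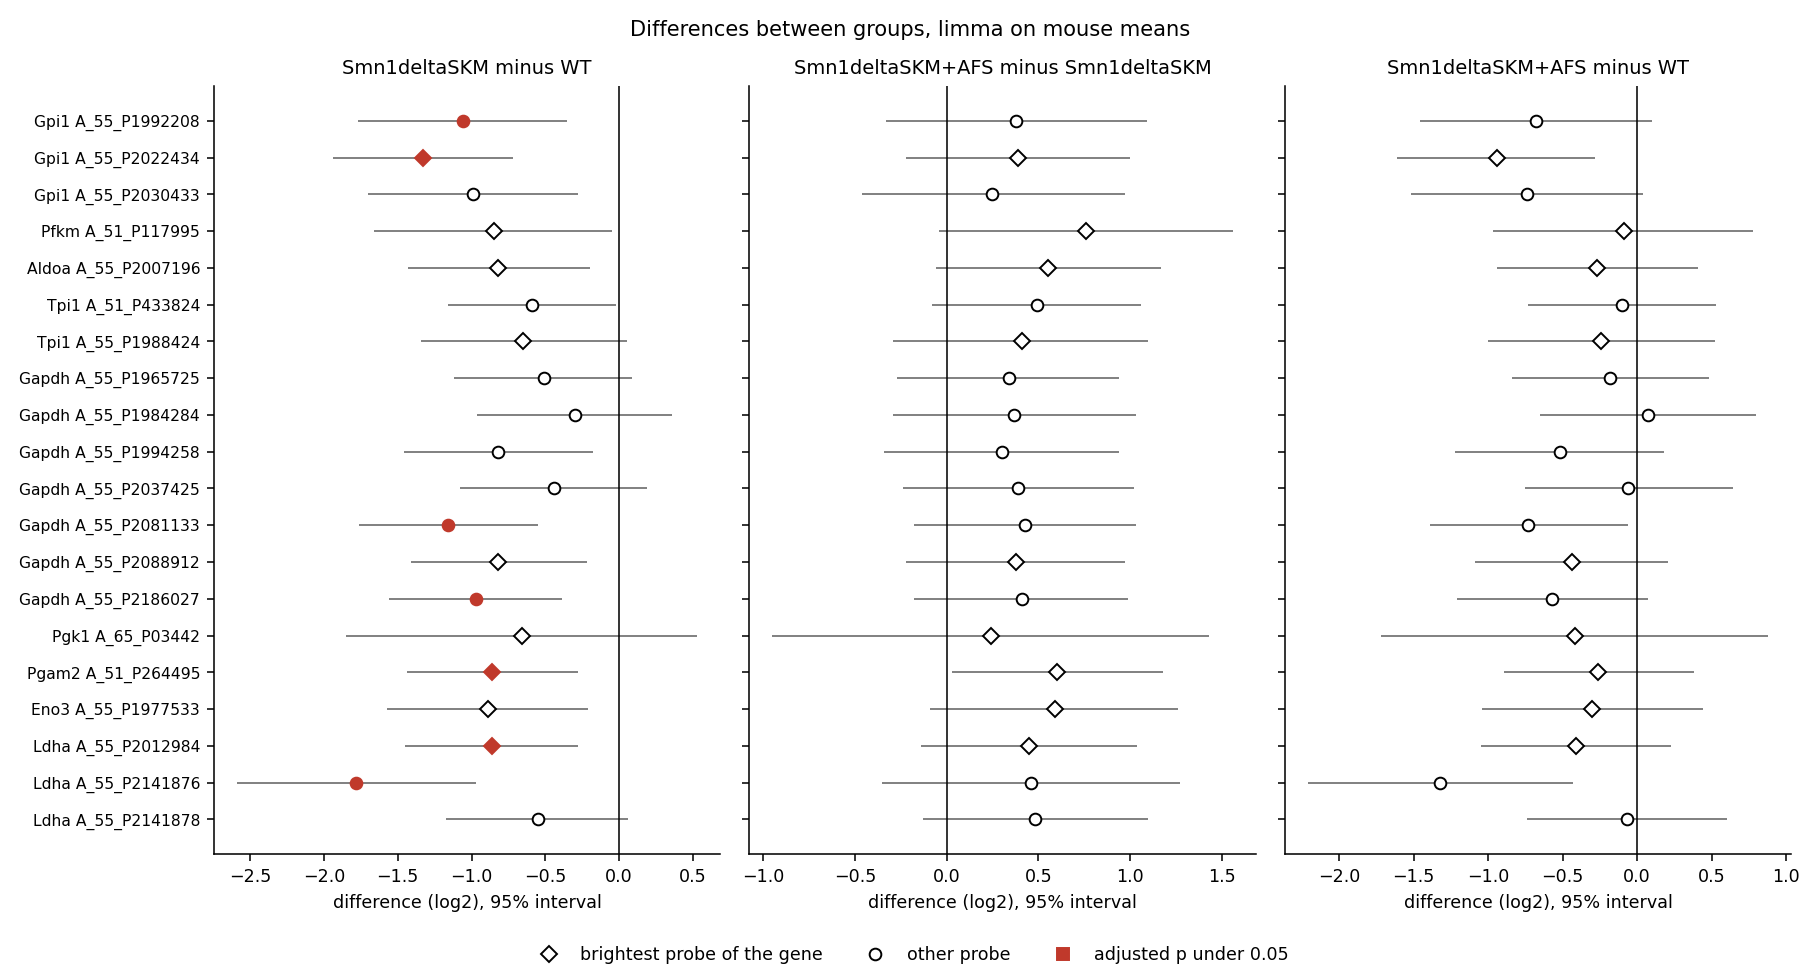
Difference in log2 signal between groups (points) with its 95% interval (lines) from limma on mouse means for the 20 tested probes, with diamonds for lead probes and red fill at an adjusted p under 0.05, in panels for Smn1deltaSKM minus WT, Smn1deltaSKM+AFS minus Smn1deltaSKM, and Smn1deltaSKM+AFS minus WT. Of the first panel's 20 probes 7 are red, whereas the other panels hold none.

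After transplantation all 20 probes read higher than in untreated Smn1deltaSKM, by 0.24 to 0.76 with a median of 0.41, against a median of 0.06 over all probes. None of the 20 was called. Nor was any of the 22154 probes (0% called, lowest limma adjusted p 0.999864), although 713 had an unadjusted p under 0.05, and with fibers in place of mice as replicates 26 probes were called, 0 of them among the 20. This comparison and that with WT share the Smn1deltaSKM mice, so a low value in these mice enters both with opposite sign. For 14 of the 20 probes every Smn1deltaSKM+AFS mouse mean lay above every Smn1deltaSKM mouse mean, as for 12.4% of all probes. On Pgam2 and Eno3 every Smn1deltaSKM+AFS fiber lay above every Smn1deltaSKM fiber, as for 0.140% of all probes.

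Pgam2 fibers of Smn1deltaSKM+AFS lay at 7.56 to 8.11 (median 7.81), just above the highest Smn1deltaSKM fiber at 7.53. The difference of 0.60 (SE 0.253, 95% interval 0.03 to 1.18, 1.52-fold) was the only one with an unadjusted limma p under 0.05, at 0.0427. Eno3 fibers lay at 7.83 to 8.37, against 7.81 for the highest Smn1deltaSKM fiber, with a difference of 0.59 (95% interval -0.09 to 1.26). Both genes were higher on scan day 1 (0.72 and 0.99) and on scan day 2 (0.59 and 0.48), the days on which fibers of both groups were scanned. Day 1 held 2 Smn1deltaSKM+AFS and 3 Smn1deltaSKM fibers, all from mouse 1 of their group, so its values carry no test. Day 2 held 5 and 9 fibers.

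Of the upper steps, Pfkm had the largest difference among the lead probes, at 0.76 (95% interval -0.04 to 1.56), with fibers at 6.42, 6.91 and 7.05 after transplantation. The values were 1.03 within scan day 1 (mouse 1 of each group only) and 0.66 within day 2. Aldoa differed by 0.55, with Smn1deltaSKM+AFS fibers at 8.97 to 9.50 that overlapped those of Smn1deltaSKM. Tpi1 gave 0.41 and Gpi1 0.39 (95% interval -0.22 to 1.00). Gapdh, with Smn1deltaSKM+AFS fibers at 8.65, 8.79 and 9.54 on the lead probe, differed by 0.38, and Ldha, at 7.29, 7.72 and 8.18, by 0.45 (95% interval -0.14 to 1.04). Pgk1 differed by 0.24 (95% interval -0.95 to 1.43), at -0.46 within scan day 1 (mouse 1 of each group only) and 0.47 within day 2. With the scan day as a term and the mouse as a random block, 20 of 20 probes stayed higher and 0 were called.

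Against WT, the Smn1deltaSKM+AFS fibers read lower on 19 of 20 probes, with a median of -0.36 where all probes had -0.06, and none was called (7.34% of all probes were called). The exception was the Gapdh probe at base 897, at 0.07. An unadjusted limma p under 0.05 was reached by Gpi1 (lead probe -0.94, SE 0.292, 95% interval -1.61 to -0.28, adjusted p 0.0809), by Ldha on A_55_P2141876 (-1.32, SE 0.39, adjusted p 0.0729) and by Gapdh on A_55_P2081133 (-0.73, SE 0.29, adjusted p 0.141). For 13 of the 20 probes every Smn1deltaSKM+AFS mouse mean lay below every WT mouse mean, as for 37.1% of all probes. Among lead probes the remaining differences were -0.44 for Gapdh, -0.42 for Pgk1, -0.41 for Ldha, -0.30 for Eno3, -0.27 for Aldoa, -0.26 for Pgam2, -0.24 for Tpi1 and -0.09 for Pfkm. On all 9 lead probes the group means thus ran from WT over Smn1deltaSKM+AFS to Smn1deltaSKM, but neighbours in that order were told apart by the test in none of the 9 genes.

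Across the 27 fibers many of the enzymes varied together. Over pairs of the 6 lead probes with values in every fiber other than Tpi1 and Pgk1, Pearson's r ranged from 0.712 to 0.91 (15 pairs, median 0.868), and from 0.418 to 0.798 (median 0.722) after each group was centred on its mean. Pairs with Tpi1 ranged from 0.411 to 0.77 (6 pairs), the highest with Gapdh and Pgam2, and from -0.191 to 0.498 after centring. Pairs with Pgk1 ranged from -0.199 to 0.671 (7 pairs), and from -0.673 to 0.644 after centring. These fibers share mice and slides, and the probes of a fiber share its array's scaling, so the values describe the arrays and carry no test. A mean z-score over the 8 lead probes with values in every fiber was 0.04 to 1.45 in WT (median 0.99), -1.59 to -0.12 in Smn1deltaSKM (median -0.56) and -0.06 to 0.79 in Smn1deltaSKM+AFS (median 0.14). The lowest WT value belonged to fiber 8, the lowest of its group on 7 of 9 lead probes and the WT array with most usable probes (34001). In Smn1deltaSKM the lowest was fiber 2 of mouse 1, lowest on 7 of 9 lead probes and the array with fewest usable probes (23170). Without WT fiber 8, 12 of the 20 probes were called lower in Smn1deltaSKM (25.8% of all probes called), and without Smn1deltaSKM fiber 2, 5 were (21.7%).

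Scaling shifted every gene at once. On the main scale the median probe differed by -0.14 between Smn1deltaSKM and WT, and 65.8% of called probes were lower in Smn1deltaSKM. Scaling to the 75th percentile of probes detected on every array moved the median probe to 0.18 and the share of calls that were lower to 33%, and scaling to their median gave 0.08 and 45.1%. The members' median lay 0.70 below that of all probes under these 3 scalings. Each of them shifts all probes of an array by the same amount, so this gap was nearly fixed in advance. The gap was 0.32 after quantile normalisation, 0.37 after normexp background correction with quantile normalisation, and 0.25 in the authors' value table. The number of usable probes per array differed between the groups, and its part in these shifts was not tested.

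**Figure D4:**
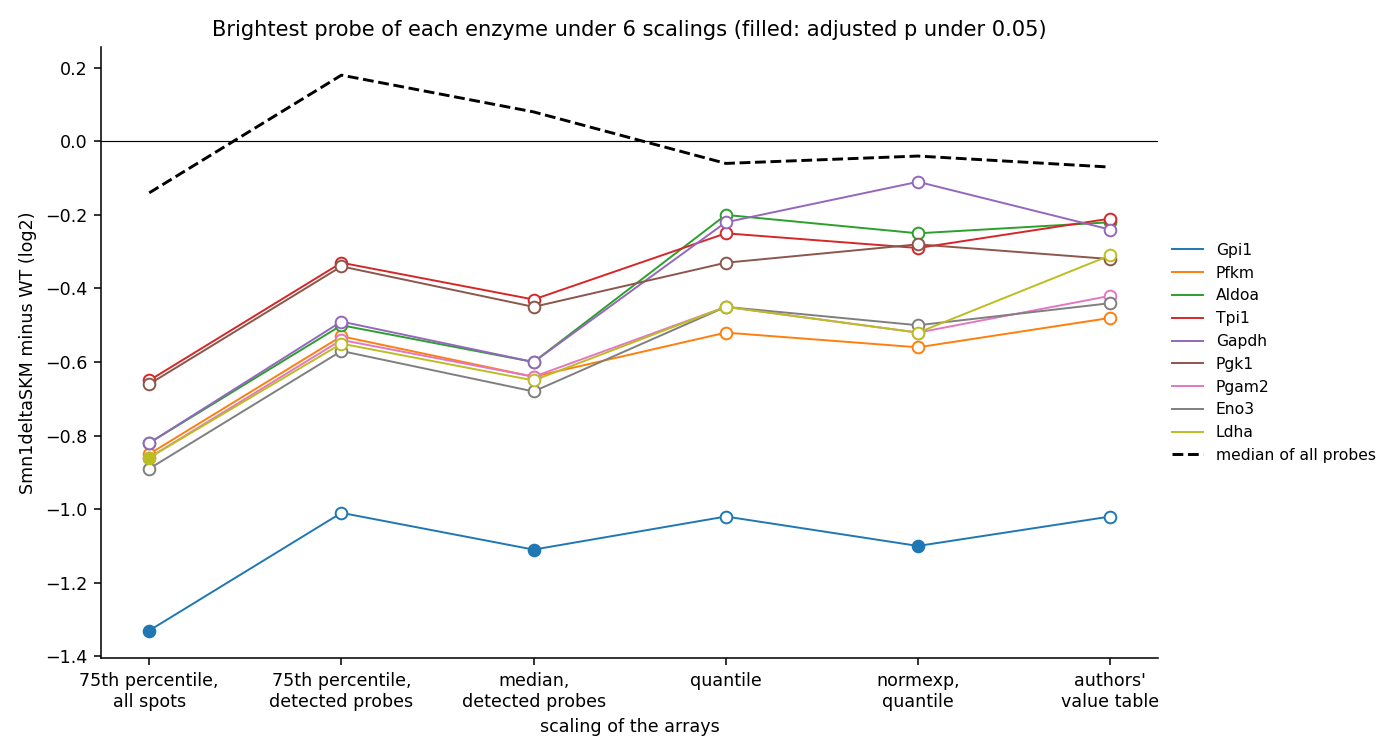
Difference of Smn1deltaSKM from WT (log2) of the lead probe of the 9 tested genes under 6 scalings of the arrays, with filled points at an adjusted p under 0.05 and a dashed line at the median of all tested probes. All 9 lines stay below 0 and below the dashed line, and Gpi1 is the lowest throughout, at -1.33 on the main scale.

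Other genes of the pathway were taken from lists of isoenzymes, regulators and transport. Of 17 isoenzymes 13 were tested, 10 of them higher in Smn1deltaSKM and 3 lower, with a median of 0.43. Only 1 was called: Aldoc, the aldolase typical of brain, rose by 0.96 (limma adjusted p 0.0489), from a low mean of -1.47 in WT to -0.50 in Smn1deltaSKM. Some of the 13 had few WT values, with 3 WT fibers for Hk3 and 4 for Pfkl. The pyruvate kinase Pkm (named Pkm2 on the array) gave -0.79 (limma adjusted p 0.099), and hexokinase 2 (Hk2), which traps glucose in muscle, gave -0.26 (limma adjusted p 0.821). Of 10 regulators 7 were tested and 2 called. Among them Pfkfb3, which makes the fructose bisphosphate that activates phosphofructokinase, fell by 2.17 (SE 0.432, limma adjusted p 0.0156) and was also lower in Smn1deltaSKM+AFS than in WT (-2.20, limma adjusted p 0.0362), a call that held under 1 of the 5 other scalings.

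Of 9 genes for transport and shuttles 8 were tested and 3 fell. They were Slc16a3, the lactate exporter of glycolytic fibers (-1.91, limma adjusted p 0.0378), Mpc1, a subunit of the mitochondrial pyruvate carrier that the array names Brp44l (-1.27, limma adjusted p 0.0428), and Gpd1, which regenerates NAD by the glycerol phosphate shuttle (-1.20, limma adjusted p 0.0195). In the 3 lists together 6 of 28 tested genes were called, 5 lower and 1 higher, with a median of -0.40. That share is about the 21.5% called over all probes. Pfkfb3 was called in Smn1deltaSKM under all 5 other scalings, Aldoc and Gpd1 under 2 each, and Slc16a3 and Mpc1 under 0, with their directions kept.

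Neighbouring routes read lower as well. Of 15 glycogen genes 14 were tested, all 14 were lower and 7 fell (14.1% of all probes were called lower), with a median of -1.34, which was below the median of -0.85 over the 9 lead probes of glycolysis. Pygm, the phosphorylase that releases glucose phosphate from glycogen, fell by 1.64 (limma adjusted p 0.0138), and Phka1, a subunit of the kinase that activates it, fell by 1.58 (limma adjusted p 0.0352). Those called also included Gyg (-1.71), which primes glycogen, the lysosomal glucosidase Gaa (-1.36), the phosphatase subunit Ppp1r3a (-1.85) and the phosphoglucomutase Pgm2 (-0.86). In the tricarboxylic acid cycle 17 of 18 tested genes were lower and 5 fell, with a median of -0.66, among them Cs (-1.65), Idh3g (-1.37), Ogdh (-1.72) and Sdhb (-1.09). These encode citrate synthase and subunits of isocitrate dehydrogenase, of oxoglutarate dehydrogenase and of succinate dehydrogenase. Their 5 of 18 stand beside 14.1% of all probes called lower and 21.5% called in either direction. Under the 5 other scalings 13 or 14 of the 14 glycogen genes stayed lower but only 0 to 3 were called. Of the 18 genes of the tricarboxylic acid cycle 14 or 15 were lower there and 3 or 4 were called. Cs and Idh3g were called under all 5, Ogdh under 4 and Sdhb under 0.
After transplantation 0 genes of these lists were called. All 18 of the tricarboxylic acid cycle and all 14 of glycogen read higher than in untreated Smn1deltaSKM, with medians of 0.64 and 0.52 beside 0.45 for the lead probes of glycolysis. Against WT the medians were 0.01, -0.54 and -0.30 in the same order.

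**Figure D5:**
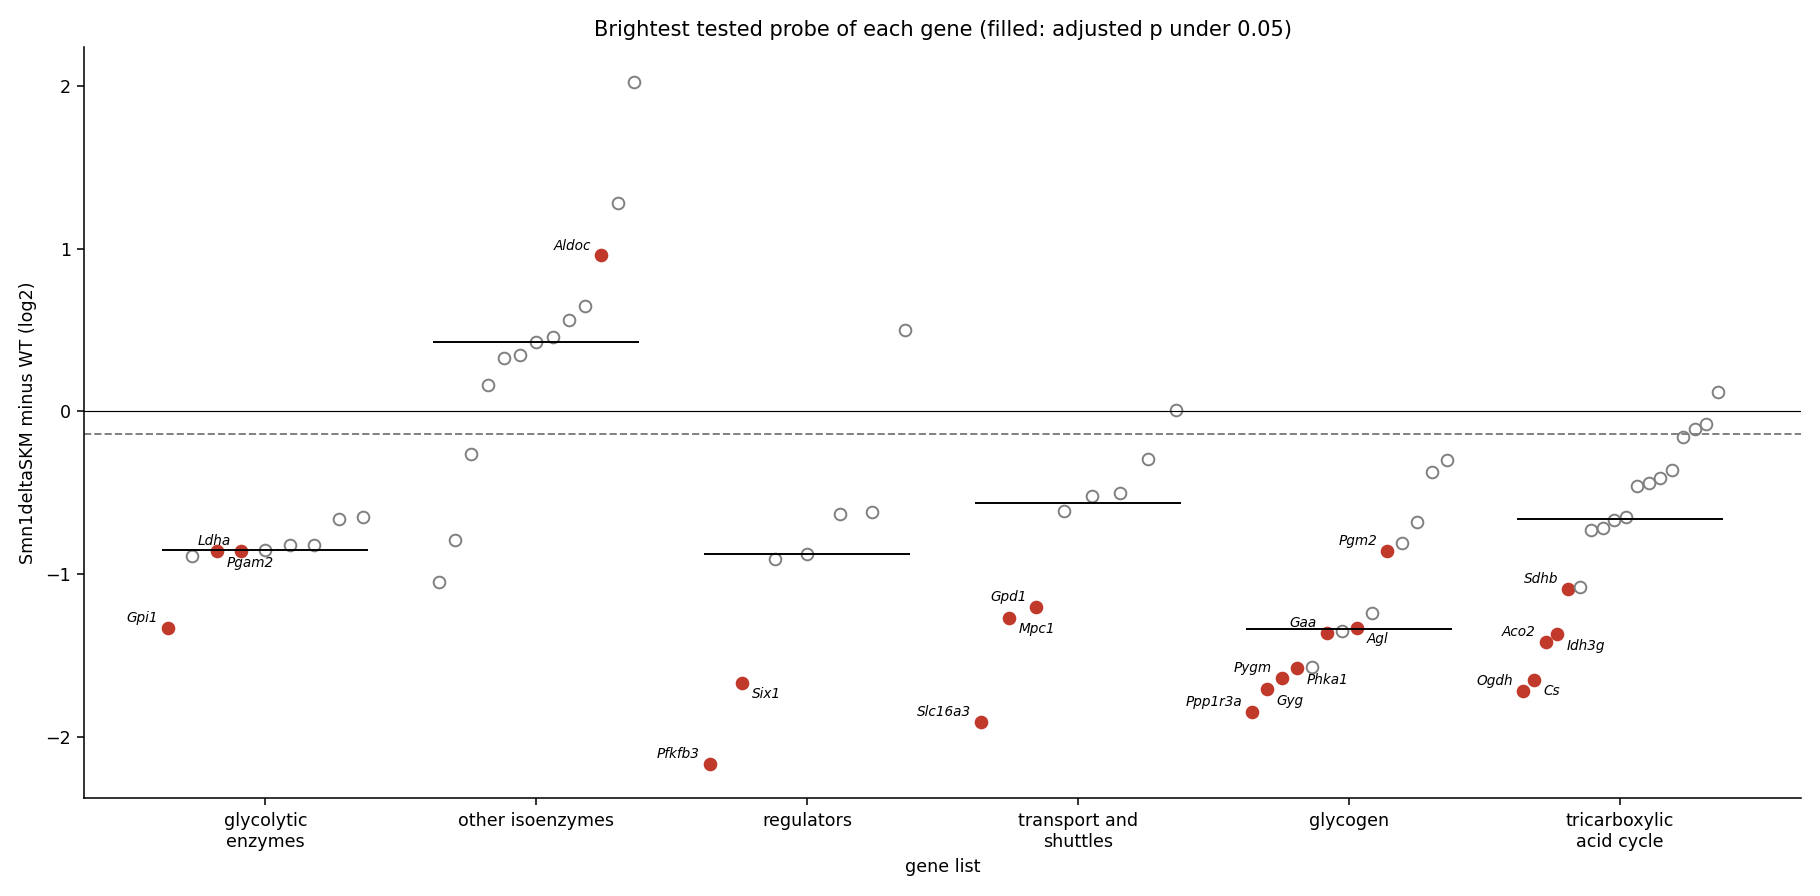
Difference of Smn1deltaSKM from WT (log2) of the brightest tested probe of each gene in 6 lists, with called genes filled and named, solid bars at the list medians and a dashed line at the median of all probes. The glycogen list has the lowest median, at -1.34, and the other isoenzymes are the one list whose median lies above 0, at 0.43.

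The fiber-type markers differed as well. Myh4, the myosin of the most glycolytic fibers, was not called (-0.42, limma adjusted p 0.244), whereas Myh1, the myosin of intermediate fast fibers, rose by 2.20 in Smn1deltaSKM (limma adjusted p 0.0225) and stood 3.45 above WT in Smn1deltaSKM+AFS (limma adjusted p 0.0195). Myoglobin (Mb) stood 2.33 above WT in Smn1deltaSKM+AFS (limma adjusted p 0.0266). Among other muscle genes Ckm, the creatine kinase of muscle, fell by 1.76 in Smn1deltaSKM (limma adjusted p 0.0216), a call that held under 1 of the 5 other scalings (-1.56 to -1.26). The immune markers Ptprc and Cd68 rose by 1.33 and 2.99 (limma adjusted p 0.022 and 0.0365), from WT means of -1.37 and -1.09. Adgre1 had a value on 13 arrays and Lyz2 on 14, so neither was tested. Where they had values, Adgre1 averaged -2.36 in both WT and Smn1deltaSKM, and Lyz2 -1.59 in WT and -2.10 in Smn1deltaSKM. The part of fiber type and of RNA from other cells in the lower enzyme values was not tested.

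Promoter sequence was read for the 3 genes whose lead probes fell. The windows are RefSeq's (GRCm38.p6), 300 bases each, from 250 before to 50 after the annotated start. Capitals mark GGGCGG, the GC box, in Gpi1 (chr7:34230287-34230586, minus strand), CANNTG, the E-box that myogenic factors bind, in Pgam2 (chr11:5803747-5804046, minus strand), and both the GC box and ACGTG, the core of hypoxia response elements, on either strand in Ldha (chr7:46845554-46845853, plus strand).
Gpi1 promoter: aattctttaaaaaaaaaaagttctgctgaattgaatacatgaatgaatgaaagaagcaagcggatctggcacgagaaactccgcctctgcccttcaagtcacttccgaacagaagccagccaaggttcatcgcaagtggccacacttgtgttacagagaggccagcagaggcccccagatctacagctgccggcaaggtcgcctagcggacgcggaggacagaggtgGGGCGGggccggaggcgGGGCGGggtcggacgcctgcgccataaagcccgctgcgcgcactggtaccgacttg
Pgam2 promoter: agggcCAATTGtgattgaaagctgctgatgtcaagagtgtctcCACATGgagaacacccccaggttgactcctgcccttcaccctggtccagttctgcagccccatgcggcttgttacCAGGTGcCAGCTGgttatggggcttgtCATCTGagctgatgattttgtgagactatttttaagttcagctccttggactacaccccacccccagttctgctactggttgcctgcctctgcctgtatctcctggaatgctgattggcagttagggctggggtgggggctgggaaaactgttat
Ldha promoter: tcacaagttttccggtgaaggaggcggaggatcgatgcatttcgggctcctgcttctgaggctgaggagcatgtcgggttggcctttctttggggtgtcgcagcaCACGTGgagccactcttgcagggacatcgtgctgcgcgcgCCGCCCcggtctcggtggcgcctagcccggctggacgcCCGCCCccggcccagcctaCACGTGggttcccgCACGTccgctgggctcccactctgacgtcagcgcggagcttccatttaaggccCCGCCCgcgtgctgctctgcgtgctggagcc
E-boxes were marked as such in Pgam2 only. The Gpi1 window held 2 GC boxes, 3 E-boxes and no ACGTG, and the Pgam2 window 5 E-boxes and neither other motif. In the Ldha window lay 3 GC boxes, 2 E-boxes and 5 matches to ACGTG. The hexamer CACGTG counts on both strands of ACGTG and is an E-box too, which applies to 4 of these 5 matches. A further Ldha start had neither a GC box nor ACGTG in its window. Over the 16 windows of the 10 genes, ACGTG lay in 7, CANNTG in 13, GGGCGG in 6 and TATAAA in 0, on either strand. Of all 32851 promoter windows 19.6% held ACGTG, 72.3% CANNTG, 35.7% GGGCGG and 13.6% TATAAA. Matches to ACGTG were present for 5 genes, namely Aldoa, Gapdh, Ldha, Pfkm and Pgk1, of which only Gapdh and Ldha had a called probe. These matches describe the letters of the windows and were not tied to binding.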

How the data were processed

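The authors deposited 1 scanner file per myofiber, made with Agilent Feature Extraction 10.7.3.1. RNA had been amplified in 18 cycles, labelled with Cy3 and hybridised in 1 colour. The signal intensity used here is the processed signal, which, per the file headers, had its background subtracted and a spatial trend removed within each array, with no scaling across arrays. A linear intensity that the authors had normalised across arrays, with blanks for absent spots, was deposited too and served as an alternative; how they normalised it is not given in the sources used here. Coordinates are those of the array design (mm9).

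Spots not found, not well above background or uneven were left out, spots of a probe averaged, and log2 values taken relative to the array's 75th percentile over all non-control spots. No spot was saturated (0 spots). Precision rests on the number of arrays and mice, 2, 3 and 2 per group. Mouse means entered limma 3.58.1 (R 4.3.3, data.table version 1.17.8), with 3 groups in 1 fit and Benjamini-Hochberg adjustment. The methods tested fibers with SAM; fibers as replicates are an alternative here. The script was tested on simulated data.

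Members and gene lists were chosen with earlier results of these data known. All members are named, and of other listed genes mainly those called, with Pkm, Hk2 and Myh4 added after their values were seen, and some listed genes, counted in their lists, are not reported here by name; the 5 genes most like the members were ranked by Pearson's r over the 27 fibers. Marker lists for endothelial, Schwann and erythroid cells were read too: of these 10 markers, 2 had values on enough arrays to be tested and 0 were called. Alternatives changed the scaling, background correction, filters, unit of replication, blocks and the fibers or mice included; leaving out Smn1deltaSKM fiber 2 or WT fiber 8 was chosen after seeing the data. The mouse numbers are shared by the groups but name different animals.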

Additional observations from a re-analysis of the deposited data

Results flagged for a closer look

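In 4 of 40 groups of 7 or 8 fibers, the lowest fiber of a probe stood apart from the others by more than Dixon's 95% critical value; chance gives about 1 in 20. All 4 were WT fibers. Smn1deltaSKM, with 12 fibers, was not among the groups tested, so fibers standing apart there were not looked for. On Tpi1 probe A_55_P1988424, WT fiber 8 stood at 7.25 against 7.76 for the next fiber. On Ldha probe A_55_P2141878 the same fiber stood at 6.59 against 7.13. On Gapdh probe A_55_P1984284, WT fiber 5 stood at 6.83 against 8.53, and on Gapdh probe A_55_P2037425, WT fiber 1 stood at 7.20 against 8.30. These are the Gapdh probes annotated at bases 897 and 740, whose differences from WT lay nearest 0. The other Gapdh probes of fibers 1 and 5 did not stand apart.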

How the results depend on the processing

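On the main scale 7 of 20 probes were called in Smn1deltaSKM against WT. The count was 1 after quantile normalisation, after scaling to the 75th percentile of probes detected on every array and in the authors' table, 2 after normexp with quantile normalisation and after scaling to the median of detected probes, 3 without a filter, with 1 probe per gene (of 9) and with only the groups compared, 16 with the mouse as a random block, 18 with fibers as replicates, 12 without Smn1deltaSKM fibers 1 to 3, and 12 without WT fiber 8. The share of all probes called moved too, from 21.5% to 34.8%, 54.1%, 27.4% and 25.8% in these last 4 settings. Under the 5 other scalings it was 15.5 to 17.9%. Without a filter it was 9.52%, with 1 probe per gene 22%, and with only the groups compared 16%. Leaving out 1 mouse gave 0 to 14, with 0 without either WT mouse, 2 and 3 without Smn1deltaSKM mice 2 and 3, and 14 without mouse 1 (0%, 8.79%, 9.87% and 43.6% of all probes). Same-numbered mice are different animals. Correlations of their deviations were 0.15 and 0.05 between WT and Smn1deltaSKM and 0.30 and 0.19 between Smn1deltaSKM and Smn1deltaSKM+AFS. Between WT and Smn1deltaSKM+AFS they were -0.05 and -0.05. In a group of 2 mice the deviations mirror each other, so these values cannot show whether numbers were paired. With the number as a replicate block 4 were called (14% of all probes). In Smn1deltaSKM+AFS against WT the count rose from 0 to 8 with fibers as replicates (41.3% of all probes called). It was 2 with the mouse as a random block (20.1%) and with only the groups compared (20.5%), and 1 without Smn1deltaSKM fibers 1 to 3 (11.9%). Leaving out 1 mouse gave a count of 0. In Smn1deltaSKM+AFS against Smn1deltaSKM it was 0 throughout. The cause was not tested.

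The lead differences of Smn1deltaSKM from WT kept their direction in 215 of 215 alternative values. Part of these could not change it. Other filters, 1 probe per gene, only the groups compared and saturated spots left out keep the mouse means of a lead probe. Against Smn1deltaSKM, the Smn1deltaSKM+AFS difference of Pgk1 turned from 0.24 to -0.05 after quantile normalisation and in the authors' table, -0.04 with normexp, -0.12 with the replicate block, and -0.12 to 0.79 when 1 mouse was left out (below 0 without Smn1deltaSKM mouse 3 and, at -0.04, without Smn1deltaSKM+AFS mouse 1). Against WT, Aldoa turned from -0.27 to 0.03 after quantile normalisation and 0.02 in the authors' table, and Pfkm from -0.09 to 0.09 and 0.03 with scaling to detected probes and to -0.26 to 0.07 when 1 mouse was left out (above 0 without Smn1deltaSKM+AFS mouse 1).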

Other observations

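Patterns over the 27 fibers were ranked among 9005 probes of other named genes with values in every fiber. The 5 genes most like the mean z-score of the lead probes were Gm5863 (Pearson's r 0.954), Myh8 (0.947), Gm7251 (0.943), Gm5507 (0.941) and Gm3534 (0.935). Myh8, the perinatal myosin heavy chain, fell by 1.20 in Smn1deltaSKM (limma adjusted p 0.0201). The Gm5863 probe aligns with a Gapdh probe over 59 bases, of which 6 differ, and that of Gm7251 over 25 bases, of which 1 differs, so their signal and that of Gapdh transcripts cannot be told apart. After each group was centred on its mean, r stayed at 0.819 for Myh8 and 0.865 for Gm5863. The fibers share mice and slides.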
